A study of Mus musculus with 24 samples.

Results

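Livers of weaning male mice that lack Cyp1b1 and belong to a lean substrain, R-Cyp1b1-null, were compared with livers of wild-type mice on a diet sufficient in vitamin A. The comparison holds 6 of the 24 arrays of the series: 3 arrays of R-Cyp1b1-null liver and 3 arrays of wild-type liver, all at postnatal day 21 (PN21), chosen by their labelled genotype, age and diet. The wild-type (C57Bl/6J) arrays all carry 1 RNA pool of 4 livers, so they are repeat hybridisations of 1 RNA and count as 1 sample. Each R-Cyp1b1-null array carries its own pool of 2 livers from the Cyp1b1-null substrain that the labels describe as resistant to diet-induced obesity. In both groups the dams ate a standard breeder diet at first and, from early gestation on, a defined low-fat diet with sufficient vitamin A, on which the litters stayed until liver collection. Beside these, the text uses PN21 arrays of the same 2 genotypes on the matching vitamin A deficient diet, 3 arrays each, and PN21 arrays of the obesity-prone Cyp1b1-null strain on the sufficient diet. The part of Cyp1b1 that is deleted, and the time of day at which livers were taken, are not given in the sources used here.

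Cyp1b1 encodes a cytochrome P450 that oxidises steroid hormones, fatty acids, polycyclic aromatic hydrocarbons and retinol. The liver takes up dietary vitamin A as retinol, stores it as retinyl esters in stellate cells through the enzyme Lrat, and sends it to other tissues bound to Rbp4. A small part is oxidised to retinoic acid, which acts through nuclear receptors to switch on genes such as Cyp26a1, Rarb and Dhrs3, whose products limit or carry the signal. Cyp1b1 itself is normally low in hepatocytes and higher in stellate and other mesenchymal cells.

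Expression was read on 1-colour Agilent arrays, and every level below is the log2 signal of a gene's brightest probe relative to the 75th percentile of its array. The array-3 R-Cyp1b1-null library stood apart from all others. Its correlation with the other 5 arrays ran from 0.438 to 0.629 across genes, its 75th percentile signal was 1960 against 158 to 375 on the others, and its values had an SD of 1.59 against 2.63 to 3.16. On that array the dimmest genes lay above and the brightest below their wild-type levels: from the dimmest to the brightest of 5 equal bins of genes, the median difference was 3.01, 2.42, 0.45, -1.72 and -3.59. Each result below is therefore given with and without it. The other arrays correlated at 0.91 or higher, and the 2 remaining R-Cyp1b1-null arrays at 0.985, with 6.33% of genes apart by at least 1. The 3 arrays of the 1 wild-type RNA differed by at least 1 in 20.9%, 24.5% and 41.4% of genes, more than wild-type array 2 differed from R-Cyp1b1-null array 1 (9.4%) or 2 (8.1%). Array i of each PN21 group on these 2 genotypes sat on slide i, so differences were also taken within slides 1, 2 and 3.

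**Figure D1:**
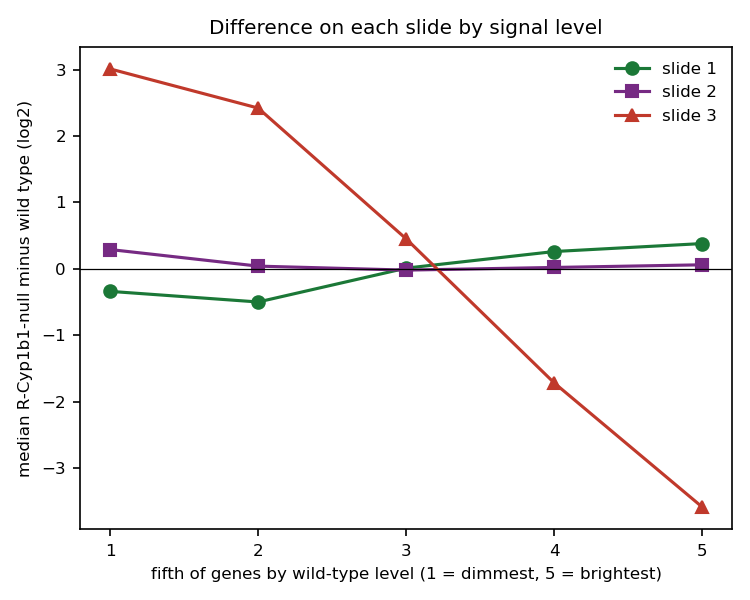
Median difference in log2 relative signal, R-Cyp1b1-null minus wild type, for genes in 5 equal bins from dimmest to brightest, drawn for each slide. The slide 3 line falls from 3.01 to -3.59 while slides 1 and 2 stay between -0.5 and 0.38.

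No gene passed the test between the 2 genotypes. limma, fitted over all PN21 and newborn samples with the wild-type pool as 1 sample, called 0 of 20530 genes (0%) at an adjusted p under 0.05 with all arrays and 0 without R-Cyp1b1-null array 3. The smallest adjusted p was 0.819 with all arrays and 0.664 without array 3. At an unadjusted p under 0.05 stood 186 and 161 genes. Both are smaller shares of the 20530 genes than the threshold of 0.05 would pass if no gene differed. Of all genes, 9984 were higher and 10546 lower in R-Cyp1b1-null liver without array 3, and 10407 and 10123 with all arrays. The genes below are therefore described by their values, and none is said to have risen or fallen. Within slides, 41 genes (0.2% of those with values on all arrays) were at least 1 higher in R-Cyp1b1-null liver on each of the 3 slides and 15 (0.0731%) were at least 1 lower. On slides 1 and 2 alone 109 genes (0.531%) were at least 1 higher and 150 (0.731%) at least 1 lower. Liver samples are mixtures, so fewer cells of a type and less RNA per cell cannot be told apart in any of these values.

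The targeted gene, Cyp1b1, was not lower in the R-Cyp1b1-null arrays by its brightest probe. It stood at -2.45, -2.46 and -2.72 on the wild-type arrays and at -0.58, 0.58 and -0.96 on the R-Cyp1b1-null arrays, so the groups did not overlap and the mutant was higher. The fitted difference was 2.22 ± 0.87 (SE) with all arrays and 2.54 ± 0.86 without array 3. The obesity-prone Cyp1b1-null arrays stood at 0.38 and 0.43, near the R-Cyp1b1-null arrays. A second Cyp1b1 probe gave -1.04, -2.25 and -3.72 in wild type and -2.42, -2.23 and 0.58 in R-Cyp1b1-null liver, and these overlap. Without array 3, the mean of both probes differed by 1.28, and the bright probe by 1.21 under normexp with quantile normalization. With all arrays the same values were 1.6 and 0.74. The bright probe lies at chr17:80106547-80106606 and the second at chr17:80100918-80100977 of the mm9 build named by the array headers. Since the deleted part is not known here, neither probe checks the genotype labels.

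Among retinoid genes, Cyp26a1, which breaks down retinoic acid and is itself a retinoic acid target, stood out. Its wild-type levels were -1.65, -1.41 and -1.87, and its R-Cyp1b1-null levels were 0.84, 0.22 and -1.37. R-Cyp1b1-null arrays 1 and 2 were well above every wild-type array, and array 3 was just above the highest of them. The difference was 1.54 ± 0.82 with all arrays and 2.17 ± 0.70 without array 3. With all arrays the difference was 0.81 under quantile normalization and 0.87 under normexp with quantile normalization. On the deficient diet Cyp26a1 was at -3.02, -3.34 and -1.90 in wild type and at -4.96, -4.26 and -3.67 in R-Cyp1b1-null liver. There it was not well above background on any R-Cyp1b1-null array or on wild-type array 2, so no order of the genotypes is read from these. The obesity-prone null arrays on the sufficient diet were at -3.78 and -3.64. The 250 bases before the Cyp26a1 start are shown because Cyp26a1 is a textbook target of retinoic acid receptors; capitals mark a direct repeat of AGTTCA spaced by 5 bases, read on the opposite strand, that starts 32 bases before the gene start (RefSeq, GRCm38.p6).
Cyp26a1 promoter, chr19:37697558-37697807, plus strand: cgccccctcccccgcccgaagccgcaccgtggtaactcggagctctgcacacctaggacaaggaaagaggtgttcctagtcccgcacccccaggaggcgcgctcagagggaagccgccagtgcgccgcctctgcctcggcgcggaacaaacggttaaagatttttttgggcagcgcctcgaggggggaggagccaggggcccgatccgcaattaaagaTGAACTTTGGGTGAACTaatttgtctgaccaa
The motif searched was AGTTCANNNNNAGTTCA on both strands, and 8 of 32851 promoter windows of the same 300 bases (0.0244%) hold it. This is a match of letters and no evidence of binding in these livers.

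Other retinoid genes mostly lay close between the groups. Of 24 measured genes of retinoic acid synthesis and response, 17 were higher and 7 lower without array 3, with a median difference of 0.22 (all genes: -0.01), and with all arrays the median was -0.22 (all genes: 0.02). Only Cyp26a1 and Cyp1b1 of this list were at least 1 higher on both slide 1 and slide 2, as were 0.531% of all genes. Rarb, a retinoic acid receptor, was at 0.01, 0.21 and 0.32 in wild type and 0.55, 1.02 and -0.27 in R-Cyp1b1-null liver. Cyp26b1, the second retinoic acid hydroxylase, spanned 1.24 to 2.34 in wild type against 0.99, 2.94 and -0.39. Dhrs3, which reduces retinaldehyde to retinol, was at 4.02, 4.44 and 5.06 against 4.91, 4.77 and 0.98, and the retinaldehyde dehydrogenase Aldh1a1 at 5.17, 5.55 and 6.28 against 5.85, 6.21 and 2.00. None of these separated the groups once arrays 1 and 2 were set against all wild-type arrays, except Rarb. Of 14 storage and transport genes, 8 were higher and 6 lower without array 3 (median 0.36, and -0.23 with all arrays, which turned to 0.17 under quantile normalization and 0.22 under normexp background correction followed by quantile normalization), and 0 reached 1 on slides 1 and 2. Crabp1, a cytosolic retinoic acid binding protein, was higher on every slide, at -3.03, -3.80 and -4.34 in wild type against -2.88, -2.88 and -0.73, but it was well above background on only 1 wild-type array and array 3 gave most of its distance. Lrat was at -0.50, -0.31 and -0.15 against 0.06, 0.46 and -0.56, and Rbp4 at 9.53, 9.87 and 10.46 against 9.98, 9.89 and 6.52. Bco1, which cleaves beta-carotene to retinaldehyde, was at -0.02, 0.35 and 0.20 against 0.28, 0.01 and -1.57.

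**Figure D2:**
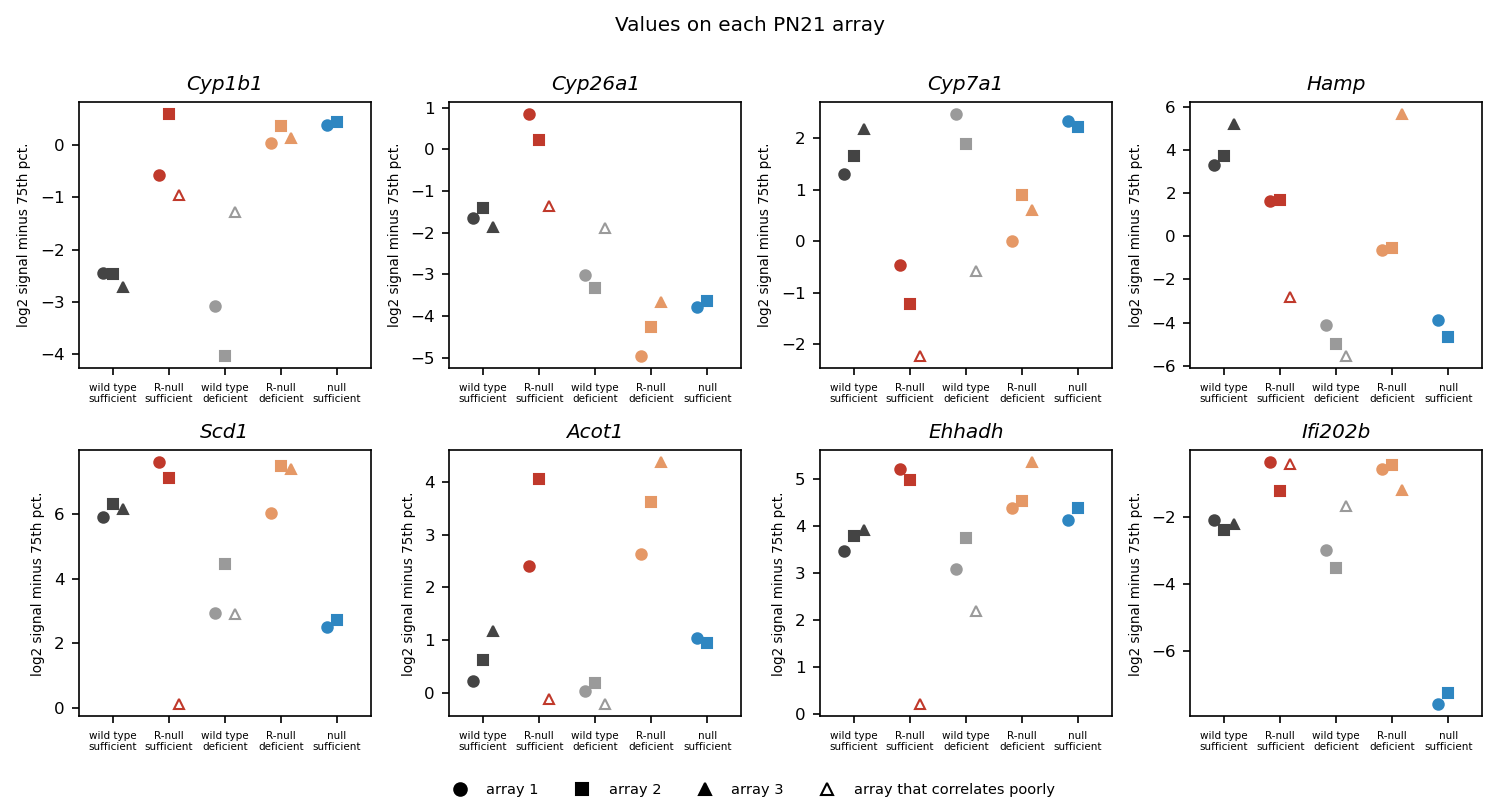
Log2 relative signal of selected genes on every PN21 array, by genotype and diet, with 1 point an array and open triangles for the poorly correlated arrays. Cyp26a1 is above every wild-type sufficient array in R-Cyp1b1-null sufficient liver. Cyp7a1, named for being low on every slide, is below every one.

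Cyp7a1, the rate-limiting enzyme of bile acid synthesis, was lower in R-Cyp1b1-null liver. Wild-type arrays stood at 1.30, 1.65 and 2.17 and R-Cyp1b1-null arrays at -0.47, -1.23 and -2.23, with no overlap. The difference was -3.02 ± 1.03 with all arrays and -2.56 ± 1.02 without array 3. A second Cyp7a1 probe kept the order, at -0.28, 0.06 and -0.12 against -1.42, -1.85 and -0.6. Nr0b2, the small heterodimer partner, a nuclear receptor that represses Cyp7a1 when bile acids are plentiful, was at 0.17, 0.37 and -1.87 in wild type and at 2.18, 1.27 and 0.01 in R-Cyp1b1-null liver. Arrays 1 and 2 were higher than every wild-type array for Nr0b2, while array 3 fell inside their range. Of 25 measured bile acid genes, 17 were higher and 8 lower without array 3 (median 0.09, and -1.14 with all arrays), and Cyp7a1 was the one gene at least 1 lower on slides 1 and 2. On the deficient diet Cyp7a1 was at 2.46, 1.89 and -0.58 in wild type and 0.01, 0.89 and 0.60 in R-Cyp1b1-null liver, and these overlap through wild-type array 3, which itself correlated with the other PN21 arrays at a median of only 0.781. The obesity-prone null arrays, at 2.32 and 2.21, were on the wild-type side.

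The hepcidin genes were also lower. Hepcidin is the liver hormone that blocks iron export from gut cells and macrophages, and mice carry the copies Hamp and Hamp2, whose near-identical sequences a probe may not separate. Hamp stood at 3.32, 3.73 and 5.23 in wild type and at 1.64, 1.69 and -2.80 in R-Cyp1b1-null liver, a difference of -3.91 ± 1.93 with all arrays and -2.43 ± 1.71 without array 3. Hamp2 stood at 5.59, 5.91 and 6.95 against 4.53, 2.93 and -1.22, a difference of -4.07 ± 1.69 and -2.42 ± 1.28. For both genes the groups did not overlap, and the limma adjusted p was 0.819 with all arrays. Both are question genes of the study. Hamp was also among the 6 lowest genes over 3 slides, a rule that favours such a separation. Hamp differed far more along other axes of the study, with -4.10, -4.98 and -5.55 in wild type on the deficient diet, where it was not well above background on any array, and -3.89 and -4.65 in the obesity-prone null on the sufficient diet. On the deficient diet R-Cyp1b1-null arrays were at -0.63, -0.54 and 5.67, above wild type there, so the genotype order was opposite to that on the sufficient diet. Of 29 measured iron genes, 16 were higher and 13 lower without array 3 (median 0.05). Only Hamp and Hamp2 of them were at least 1 lower on slides 1 and 2, as were 0.731% of all genes.

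Genes of fatty acid oxidation were mostly higher on slides 1 and 2 and lower on slide 3. Of 34 measured members, 26 were higher and 8 lower without array 3 (median 0.29, and -0.86 with all arrays), with slide medians of 0.48, 0.41 and -3.65. The median with all arrays was 0.03 under normexp with quantile normalization. Over all genes, 9984 were higher and 10546 lower without array 3. The list is bright, with a median level of 3.82 on wild-type array 1. The brightest of the 5 bins of genes had slide medians of 0.38, 0.06 and -3.59. Medians on slides 1 and 2 were 0.5 and 0.01 for ribosomal proteins and 0.48 and 0.05 for oxidative phosphorylation. The ribosomal slide 1 median became -0.01 under quantile normalization. The part of signal level in the fatty acid oxidation medians was not tested. On slides 1 and 2, 5 members were at least 1 higher and 0 lower, against 0.531% and 0.731% of all genes. The 5 were named after their values were seen. Acot1, a cytosolic thioesterase that releases free fatty acids from acyl-CoA and is a target of the fatty acid sensor PPAR-alpha, was at 0.22, 0.62 and 1.17 in wild type and at 2.41, 4.05 and -0.12 in R-Cyp1b1-null liver, a difference of 1.44 ± 1.10 with all arrays and 2.56 ± 0.79 without array 3. On the deficient diet the genotypes did not overlap for Acot1, at 0.02, 0.19 and -0.22 against 2.64, 3.61 and 4.37. Ehhadh, a peroxisomal beta-oxidation enzyme, was at 3.47, 3.78 and 3.92 against 5.20, 4.98 and 0.21, and array 3 turned its direction: the difference was -0.26 ± 1.32 with all arrays and 1.37 ± 0.65 without array 3. In the deficient groups Ehhadh was at 3.08, 3.74 and 2.18 against 4.39, 4.54 and 5.35, there without overlap. Pdk4, the kinase that shuts pyruvate out of the mitochondrial oxidation of glucose, was at -0.89, -0.63 and 0.20 against 1.17, 0.90 and -1.50 (difference 0.63 ± 0.89, and 1.47 ± 0.66 without array 3). The acyl-CoA thioesterase Acot4 stood at 0.08, 0.39 and 0.82 against 1.33, 1.50 and -1.21. The fasting hormone Fgf21 stood at -0.77, -0.48 and 0.36 against 0.42, 1.11 and -5.90. In all 5, R-Cyp1b1-null arrays 1 and 2 were above every wild-type array and array 3 was below the wild-type range.

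Genes that store energy gave a mixed pattern. Scd1, which puts the double bond into newly made fatty acids, was at 5.91, 6.30 and 6.16 in wild type and at 7.60, 7.13 and 0.11 in R-Cyp1b1-null liver. In the deficient groups Scd1 was at 2.94, 4.46 and 2.90 against 6.03, 7.49 and 7.40, so arrays other than the poorly correlated one were higher in R-Cyp1b1-null liver on both diets. Pnpla3, a lipid droplet enzyme, overlapped at 0.65, 0.17 and 0.53 against 0.11, 1.83 and 0.73. Sqle, squalene epoxidase of cholesterol synthesis, was at 2.85, 3.24 and 3.39 against 1.79, 3.23 and -1.71. Lipogenic genes were split 18 higher to 17 lower among 35 (median 0.07 without array 3, -1.04 with all arrays), and cholesterol synthesis genes 14 to 12 among 26 (0.04 and -1.16). Of 18 gluconeogenesis and glycogen genes, 4 were higher and 14 lower without array 3 (median -0.22, and -1.31 with all arrays). Both glycogen-targeting subunits of protein phosphatase 1 there moved apart: Ppp1r3g was at 1.15, 1.52 and 2.54 against 0.08, -0.32 and -2.27, whereas Ppp1r3c, named after its values were seen, was at 1.12, 1.48 and 1.89 against 2.86, 2.58 and -1.80.

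**Figure D3:**
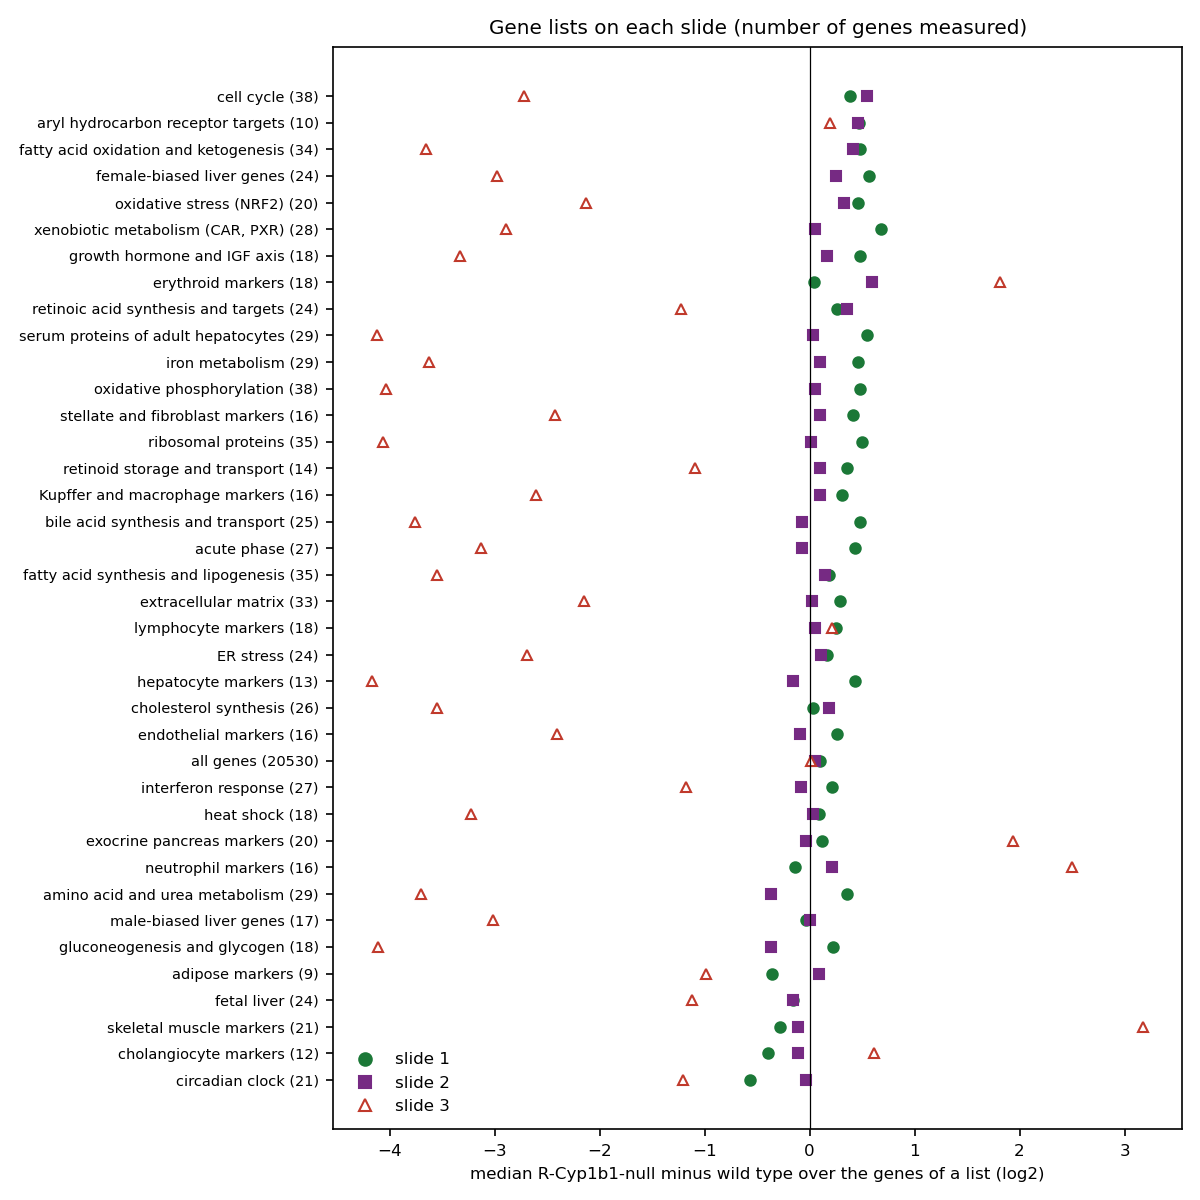
Median difference in log2 relative signal, R-Cyp1b1-null minus wild type, over the measured genes of each list, with 1 point a slide and the median over all genes for reference. Slide 3 lies far from slides 1 and 2 in most lists, for example -3.65 against 0.48 and 0.41 for fatty acid oxidation.

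Targets of the drug-sensing receptors CAR and PXR were on the whole higher without array 3, with 22 of 28 higher and 6 lower (median 0.37, and -0.58 with all arrays). The slide medians were 0.68, 0.05 and -2.89, so slide 1 carried most of this. This list is bright too, with a median level of 3.36 on wild-type array 1. The brightest bin of genes had slide medians of 0.38, 0.06 and -3.59. The part of signal level in the medians of the CAR and PXR targets was not tested. On slides 1 and 2, 4 members were at least 1 higher and 0 lower, against 0.531% and 0.731% of all genes. The 4 were again named after their values were seen. Akr1b7, an aldo-keto reductase, was at 0.91, 1.32 and 1.82 in wild type and at 3.81, 3.00 and -0.55 in R-Cyp1b1-null liver, a difference of 0.74 ± 1.18 with all arrays and 2.05 ± 0.73 without array 3. The cytochromes Cyp3a16 (3.46, 3.61 and 3.55 against 4.61, 4.69 and 0.67), Cyp3a44 (4.21, 4.54 and 4.12 against 5.28, 5.66 and 0.75) and Cyp2c55 (-0.11, 0.18 and 0.72 against 1.23, 1.56 and -2.17) had the same layout; Cyp3a genes are a multigene family whose probes may share targets. Cyp3a16, Cyp3a44, Acot4 and Prom1 are also on the list of genes higher in female liver, of which 16 of 24 were higher and 8 lower without array 3 (median 0.32, and -0.50 with all arrays, which was 0.04 under normexp with quantile normalization). Prom1, a membrane glycoprotein, was at -1.88, -1.60 and -2.48 against 0.46, -0.30 and -1.68 and overlapped through array 3. A second Prom1 probe did not overlap, at -1.62, -2.51 and -4.88 against -0.69, -1.37 and 0.1, and was well above background on 2 wild-type arrays. Bcl6, a repressor that is higher in male liver, was at 2.20, 2.66 and 3.15 against 1.21, 1.45 and -0.44, all below wild type. Of 17 male-biased genes, 7 were higher and 10 lower without array 3. All PN21 livers were labelled male.

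Several genes known from intestinal and other lining epithelia were higher in the wild-type pool than on R-Cyp1b1-null arrays 1 and 2, while other markers of the same kind were not. Dmbt1, a secreted mucosal glycoprotein, was at 2.44, 2.70 and 2.53 on the wild-type arrays and at -1.75, -2.23 and 0.52 on the R-Cyp1b1-null arrays, a difference of -3.71 ± 1.16 with all arrays and -4.54 ± 1.03 without array 3. Lgals2, a galectin of the gut lining, was at -0.54, -0.16 and 0.62 against -2.53, -2.11 and -1.60 (-2.05 ± 0.81 and -2.29 ± 0.81). Cyp2s1, an epithelial cytochrome, was at -0.01, 0.25 and 0.79 against -1.21, -1.39 and -1.68 (-1.77 ± 0.59 and -1.64 ± 0.58). These 3 separated the groups on every array by their brightest probe. They were named for being among the 6 lowest genes over 3 slides, which favours such a separation. A second Cyp2s1 probe lay the other way, at -3.93, -4.40 and -3.85 against -3.27, -3.74 and -2.56, and the mean of both differed by only -0.45 with all arrays and -0.55 without array 3. Muc3, a membrane mucin named after its values were seen, was at -2.45, -2.05 and -1.82 against -6.08, -6.34 and -2.09; it was not well above background on R-Cyp1b1-null arrays 1 and 2, where it was at least 3.57-fold lower. Its fitted difference was -2.73 ± 1.20 with all arrays and -4.10 ± 0.72 without array 3, with limma adjusted p of 0.819 and 0.664. A second Muc3 probe did not pass the filter on dim probes, and its values overlapped, at -1.6, -3.7 and -2.97 against -3.67, -3.85 and -0.01. Spink4, a goblet cell protease inhibitor, was at 0.39, 0.32 and 0.97 against -2.22, -2.83 and 0.27 (-2.16 ± 1.00 and -3.09 ± 0.75). Under normexp with quantile normalization and without array 3, Muc3 differed by -1.08 and Spink4 by -1.73. Myo1a, the brush border myosin, was at -1.32, -1.47 and -0.82 against -3.39, -3.07 and 0.30; Spink4 and Myo1a were also named after their values were seen.

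In several of these genes the wild-type pool was above the other PN21 groups as well, most of all in Dmbt1. On the deficient diet, wild-type Dmbt1 was at -0.97, -1.67 and 0.51 and R-Cyp1b1-null Dmbt1 at -1.40, -2.35 and -2.75, and the obesity-prone null arrays were at -3.54 and -3.77. Wild-type Muc3 on the deficient diet was at -6.03, -5.38 and -3.95, not well above background on any array. Myo1a on the poorly correlated wild-type deficient array, at -0.57, was above the pool. Across all genes, the pool's 3 arrays lay above all 11 other well-correlated PN21 arrays in 49 of 20513 genes (0.239%) and below all of them in 34 (0.166%). Among the 150 genes at least 1 lower in R-Cyp1b1-null liver on slides 1 and 2 it lay above in 21 (14%), and among the 15 lower on every slide in 7 (46.7%); both shares use the same wild-type values that chose the genes. Among the 109 higher genes the pool lay below all others in 6 (5.5%). Of 32 intestinal epithelium markers, listed after the first values were seen, 25 were measured. Without array 3, 8 were higher and 17 lower (median -0.85), and with all arrays 13 were higher and 12 lower (median 0.13). On slides 1 and 2, 7 were at least 1 lower, against 0.731% of all genes. Cdx2, Cdh17, Slc15a1, Clca1, Guca2b, Reg3b and Reg3g were not measured in any group. The list's summed linear signal was 76.0, 94.6 and 146.4 in wild type and 80.6, 104.7 and 28.2 in R-Cyp1b1-null liver, so the sums did not separate the groups. Other members lay the other way on slides 1 and 2: Fabp2, an intestinal fatty acid binding protein, was at 4.80, 5.17 and 5.61 against 5.19, 6.09 and 1.45, and the peptidase Anpep at 4.15, 4.52 and 5.29 against 4.73, 4.75 and 1.59. Among exocrine pancreas markers, Reg1, named after its values were seen, was at -0.90, -0.81 and -0.37 against -3.43, -4.79 and -0.17. Pnliprp1 of the same list lay the other way, at -1.87, -1.90 and -2.00 against -0.08, -0.64 and -0.58. Of 20 measured pancreas markers, 9 were higher and 11 lower without array 3. Their sums were 9.2, 7.4 and 7.7 against 11.5, 5.9 and 17.8. The part of other tissue in the pooled RNA was not tested.

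**Figure D4:**
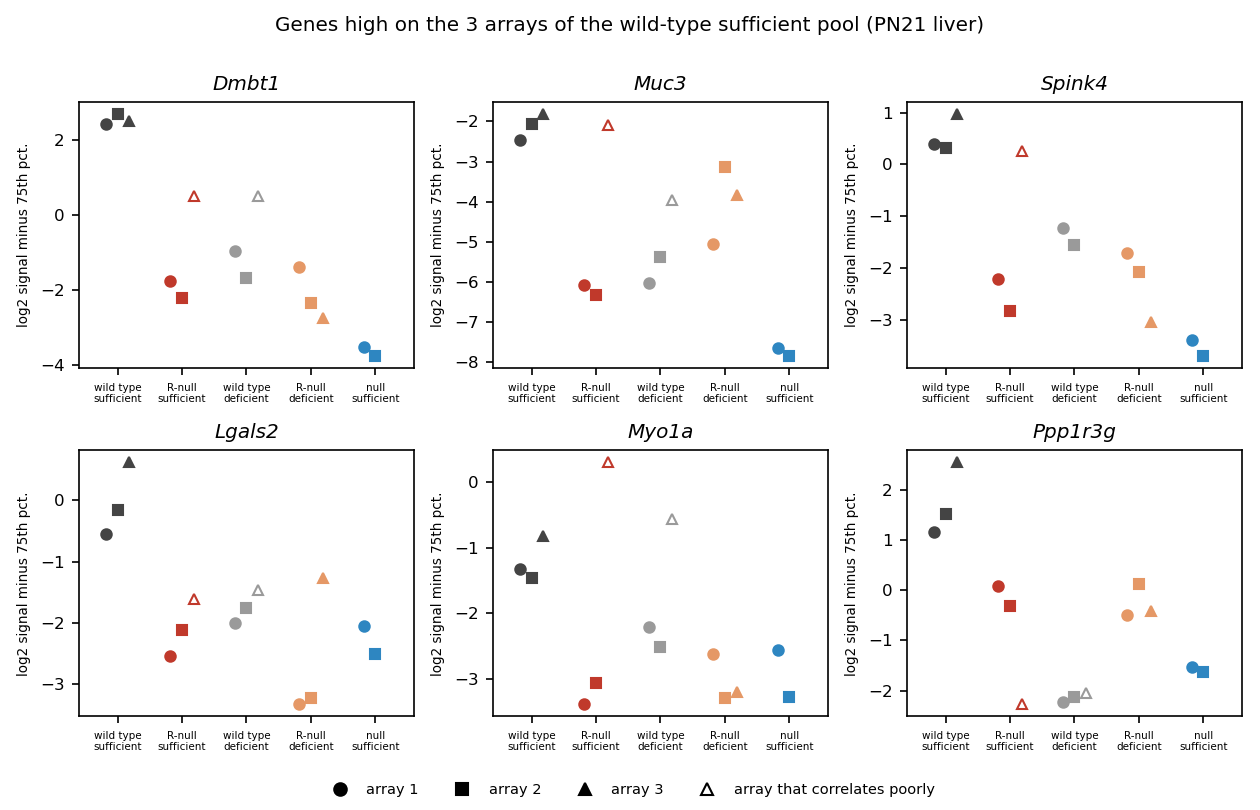
Log2 relative signal of genes in which the wild-type sufficient pool stands apart, on every PN21 array by group. The pool's 3 Dmbt1 values, 2.44 to 2.70, lie above all other PN21 arrays.

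Several clock genes differed between the groups, some higher and some lower in R-Cyp1b1-null liver. The liver clock is a feedback loop in which Arntl and Clock drive E-box genes, among them the repressors Per and Cry and the output factors Dbp and Tef. Arntl was at -0.08, -0.61 and -0.93 in wild type and at 1.48, 0.35 and 1.19 in R-Cyp1b1-null liver, a difference of 1.55 ± 0.56 with all arrays and 1.46 ± 0.54 without array 3. Cry1, a repressor, was at -3.33, -3.68 and -3.90 against -1.56, -2.73 and -1.07 (1.85 ± 0.69 and 1.49 ± 0.64), and it was well above background on only 1 wild-type array. A second Cry1 probe overlapped, at -4.45, -5.13 and -3.87 against -3.30, -5.99 and -3.55, and the mean of both differed by 1.03 with all arrays and 0.66 without array 3. Per3 was at -1.0, -0.90 and -0.48 against -3.26, -1.77 and -1.21. Arntl, Per3 and the brighter Cry1 probe separated the groups on every array. These genes were named for having 1 sign on every slide, which favours such a separation. Dbp, named after its values were seen, was at 5.42, 5.73 and 6.39 against 1.84, 5.11 and 2.46 (-2.71 ± 1.00 and -2.37 ± 1.00), and R-Cyp1b1-null array 2 was close to wild type while array 1 was far below. With all arrays and quantile normalization, Dbp differed by -1.44 and Arntl by 2.33. Tef was at 2.61, 2.95 and 3.02 against 0.92, 2.36 and 0.03, Nr1d1 (Rev-erb alpha) at 0.40, 0.80 and -0.92 against -1.99, 0.12 and -2.67, and Ciart at -3.03, -3.03 and -1.67 against -5.60, -3.17 and -4.39. In each of these, too, array 2 was nearest to wild type. Ciart was not well above background on R-Cyp1b1-null arrays 1 and 3, and both other Nr1d1 probes overlapped between the groups. Nr1d1 was also among 514 genes (2.5%) low on slide 3 in wild type on both diets and in R-Cyp1b1-null liver on the deficient diet. Low there means at least 1 below both other arrays of the group. The other Tef probes were lower on slides 1 and 2 but higher on slide 3. An example is the Tef probe at -1.07, -1.37 and -0.96 against -2.21, -1.97 and 0.28. Of 21 clock genes on the list, 10 were higher and 11 lower without array 3 (median -0.23, and -0.38 with all arrays). The division by phase, drawn up after the values were seen and with Cry1 placed beside the activators, is a description and tests nothing. Of 5 activators and genes of their phase, 5 were higher without array 3 but 3 with all arrays, where 2 were lower, with slide medians of 1.56, 0.61 and 2.12 (-0.1 on slide 3 under normexp with quantile normalization). Of 11 repressors and output genes 10 were lower with and without array 3, with slide medians of -1.46, -0.38 and -1.75. The livers' collection times are not given in the sources used here, and their part in these values was not tested.

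**Figure D5:**
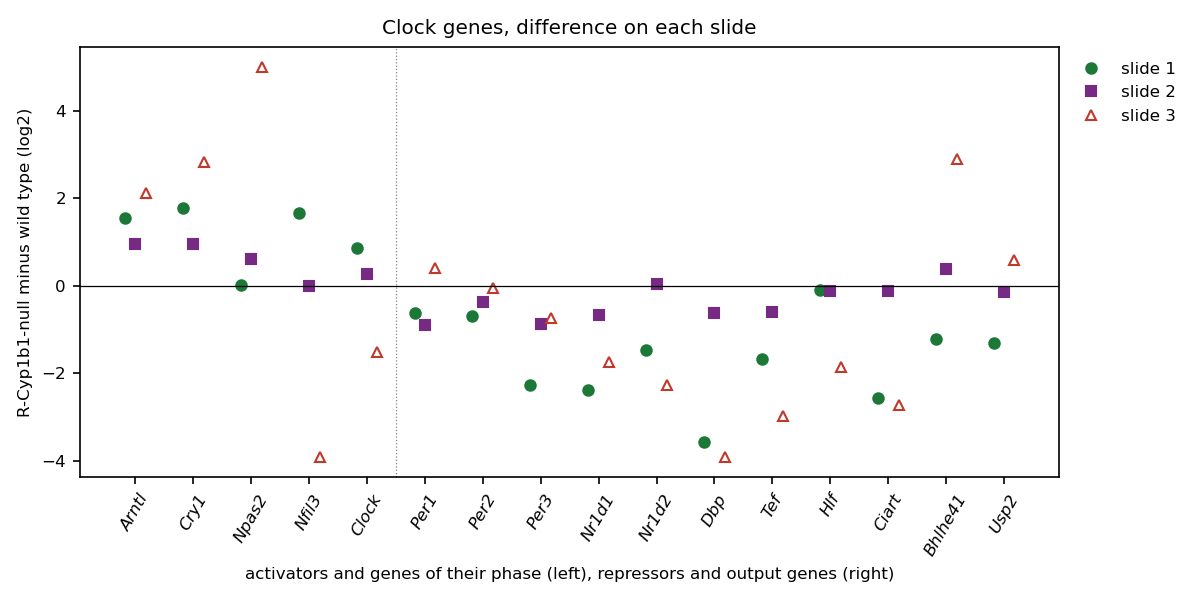
Difference in log2 relative signal, R-Cyp1b1-null minus wild type, for clock genes on slides 1, 2 and 3. Arntl and Cry1 lie above 0 and Dbp, Tef, Per3, Nr1d1 and Ciart below 0 on every slide, with slide 2 nearest to 0 for Dbp.

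The E-box CACGTG is the site that the Arntl and Clock pair recognises. It is shown in capitals in the 150 bases before the start of 3 of the clock genes above that hold it, read along the gene (RefSeq, GRCm38.p6).
Ciart promoter, chr3:95882229-95882378, minus strand: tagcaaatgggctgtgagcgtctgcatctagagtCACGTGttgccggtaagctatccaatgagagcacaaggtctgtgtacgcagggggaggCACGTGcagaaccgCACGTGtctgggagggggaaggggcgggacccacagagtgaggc
Cry1 promoter, chr10:85185055-85185204, minus strand: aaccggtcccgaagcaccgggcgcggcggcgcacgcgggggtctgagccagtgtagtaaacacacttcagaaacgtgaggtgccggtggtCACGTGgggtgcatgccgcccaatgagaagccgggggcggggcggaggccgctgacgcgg
Tef promoter, chr15:81802523-81802672, plus strand: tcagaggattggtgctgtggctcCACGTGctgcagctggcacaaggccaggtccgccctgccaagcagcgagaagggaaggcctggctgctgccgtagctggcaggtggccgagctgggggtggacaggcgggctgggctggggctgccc
Ciart holds 3 matches, 116, 58 and 44 bases before its start, Cry1 holds 1 at 60 bases and Tef 1 at 127 bases. CACGTG reads the same on both strands, and 2349 of 32851 promoter windows of 300 bases (7.15%) hold it. Arntl, Dbp, Per3 and Nr1d1 have no match in these windows, which says only that the letters are not there. By their brightest probes, Cry1 was higher and Ciart and Tef lower in R-Cyp1b1-null liver, so these 3 genes did not share a direction. Per1 and Bhlhe41 also hold the motif in a window and are not shown. The part of the E-box in these values was not tested.

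Most of the widest positive differences on all 3 slides were in dim probes. 5031425E22Rik, an uncharacterised transcript, was at -3.12, -5.50 and -3.73 in wild type and at 0.51, -3.35 and -0.72 in R-Cyp1b1-null liver (2.93 ± 1.24 with all arrays, 2.69 ± 1.28 without array 3, and 0.98 and 1.20 under normexp with quantile normalization), and was well above background on 1 wild-type array. The orphan receptor Gpr6 was at -6.08, -5.58 and -4.37 against -3.35, -3.65 and -1.40, and the olfactory receptor Olfr148 at -6.18, -5.66 and -5.01 against -3.60, -3.97 and -3.17. Gprasp2 was at -4.80, -5.48 and -4.47 against -3.39, -3.68 and -2.63, and Suco at -4.65, -5.27 and -3.79 against -3.04, -3.34 and -2.47. Another measured Suco probe was at -4.89, -5.79 and -4.87 against -5.97, -5.14 and -5.9, well above background on none of these arrays. The mean of both Suco probes differed by 0.57 with all arrays and 0.51 without array 3. None of Gpr6, Olfr148, Gprasp2 and Suco cleared the background on a wild-type array. The rule that named them asked for clear signal on every array of 1 group, here R-Cyp1b1-null liver alone. On array 3 the dimmest genes lay above wild type by a median of 3.01. As bounds, Gpr6 was at least 1.58-fold, Gprasp2 1.17-fold and Suco 1.43-fold higher with all arrays, and without array 3 Suco alone had one, 1.21-fold; Olfr148 had none above 1. Gpr6 and Suco turned slightly negative under normexp with quantile normalization (-0.08 and -0.14 with all arrays). On the lower side, A930033H14Rik was at -0.30, 0.00 and 0.87 against -1.68, -1.46 and -0.29 (-1.33 ± 0.75 and -1.76 ± 0.70). Rspry1, named after its values were seen, differed by 1.63 ± 0.61 and 2.10 ± 0.50, which rested on 1 wild-type array: wild type was at -6.02, 0.15 and 0.10 and R-Cyp1b1-null liver at 0.16, 0.20 and -1.21, and without wild-type array 1 the difference was -0.42.

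Ifi202b, an interferon-inducible DNA sensor known to differ between mouse strains, was at -2.08, -2.40 and -2.20 in wild type and at -0.38, -1.23 and -0.43 in R-Cyp1b1-null liver, with no overlap (1.55 ± 0.65 with all arrays, 1.43 ± 0.65 without array 3, and 0.70 and 0.82 under normexp with quantile normalization). On the deficient diet it was at -2.98, -3.51 and -1.69 against -0.59, -0.45 and -1.19, in the same order. Of 27 interferon response genes 12 were higher and 15 lower without array 3, and Ifi202b was the only one at least 1 higher on slides 1 and 2. The fetal genes Igf2 (-2.30, -2.06 and -1.12 against -1.72, -1.98 and -1.99) and Afp (0.59, 0.96 and 1.29 against 0.72, 0.73 and -2.61) overlapped between the genotypes, with only array 3 of Afp outside the wild-type range. Chrna4 was at -0.46, -0.35 and -0.54 against -1.81, -0.58 and -0.94, and Lvrn at -2.51, -2.38 and -4.40 against -2.34, -2.49 and -1.29.

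Markers of the cells in the liver differed as follows. All 13 hepatocyte markers were above background in both groups, with summed linear signals of 3581.3, 4718 and 5895.4 in wild type and 4817.4, 4186.4 and 318.1 in R-Cyp1b1-null liver, so only array 3 was outside. Of 18 erythroid markers 13 were higher and 5 lower without array 3 (median 0.39), but only 7 were higher on both slides 1 and 2, with slide medians of 0.04 and 0.59. Their sums, to which globins gave most, were 486.6, 636.6 and 732.1 against 1157.2, 1220.2 and 55.5. Hba-a1, alpha globin, was at 7.55, 7.95 and 6.72 against 8.86, 8.96 and 2.80 and was named after its values were seen. Of 38 cell cycle genes, 33 were higher and 5 lower without array 3 (median 0.28, and -0.62 with all arrays, or 0.05 over the mean of each gene's probes), and 30 were higher on both slides 1 and 2, where 7390 of all 20530 genes were; 0 of the 38 reached 1. Mcm4, a replication helicase subunit named after its values were seen, was at 1.50, 1.88 and 2.00 against 2.45, 2.96 and -1.85. Kupffer cell markers summed to 156.9, 200.5 and 270.4 against 182.7, 200.3 and 25.5, and neutrophil markers to 9.2, 7.7 and 10.1 against 9.1, 9.3 and 14.4. Cholangiocyte markers, which include the Krt19 (1.46, 1.53 and 0.61 against -0.31, -0.20 and 0.92) of the bile duct lining, summed to 16.1, 17.2 and 15.3 against 14.8, 15.1 and 12.4. The part of blood or of dividing cells in the gene results was not tested.

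The same genotypes on the deficient diet gave a set of arrays that the within-slide differences on the sufficient diet did not use. The limma fit and the choice of measured probes did use them. Of the 109 genes at least 1 higher on slides 1 and 2, 8 (7.34%) were so there too, against 0.336% of all genes. At least 1 lower there were 6 (5.5%), against 3.35% of all genes. A positive sign on both slides was kept by 32 (29.4%), near the 24.1% of all genes. More of the 109, 40 (36.7%), were lower on both slides, near the 36.5% of all genes. Of the 150 genes at least 1 lower, 22 (14.7%) were at least 1 lower on the deficient diet against 3.35% of all genes, and 94 (62.7%) were lower on both slides against 36.5%. Arrays of different diets shared slides, so the shares are descriptions. limma called 0 genes (0%) for a genotype difference that depended on diet, with 1911 at an unadjusted p under 0.05 with all arrays and 1071 without array 3.

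The obesity-prone Cyp1b1-null strain on the same diet was hybridised on a slide of its own, and R-Cyp1b1-null arrays differed from it in many genes. limma called 3268 genes (15.9%) higher and 151 (0.736%) lower with all arrays at an adjusted p under 0.05; quantile normalization left 757 calls in all, and normexp with quantile normalization 4. Slide and strain cannot be told apart there. Cyp26a1 was called higher in R-Cyp1b1-null liver (3.61, adjusted p = 0.000863) and Cyp7a1 lower (-3.57, adjusted p = 0.00512). These comparisons share their R-Cyp1b1-null arrays with the comparison to wild type and add no independent support to it.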

How the data were processed

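Liver RNA was labelled with Cy3 and hybridised to 1-colour Agilent arrays, per the labels' protocols. The deposited intensity values are gProcessedSignal from Agilent Feature Extraction 10.7.3.1, per the file headers, which name the mm9 build; the submitters' processing notes also name limma. Depth has no counterpart in array data, and the number of arrays limits the precision. Nothing says that replicates are separate litters, so p-values measure only the spread between these samples. The wild-type sufficient PN21 pool counts as 1 sample and adds nothing to that spread. Standard errors and p-values therefore rest on the spread within the other groups, newborn and obesity-prone null among them. Variation between wild-type livers on the sufficient diet at PN21 is not measured.

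Each array was set to log2 signal minus its 75th percentile, outlier spots were left out, spots were averaged per probe, and the brightest of 30916 measured probes (flagged by the scanner software as clear of background on all arrays of some group) stood for each of 20530 genes, 16800 of them named through RefSeq or the files. The 3 wild-type arrays of 1 pool were averaged. limma 3.58.1 in R 4.3.3 fitted group means over 22 samples (21 without R-Cyp1b1-null array 3), with Benjamini-Hochberg adjustment and an adjusted p under 0.05 as the call; the script was tested on simulated data. An "at least N-fold" bound sets the brighter group's mean against the lowest signal well above background.

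The members and the 37 gene lists were chosen with earlier results of these data known, and 3 further lists after the values were seen. Named genes were the study's question genes, the 6 highest and 6 lowest over 3 slides, and up to 3 per list with 1 sign on every slide; some of these are covered by counts. Alternatives covered normalization, background, probe filter, slide block, array weights and each array left out.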

Additional observations from a re-analysis of the deposited data

Results flagged for a closer look

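A set of genes named above differed between the R-Cyp1b1-null and obesity-prone Cyp1b1-null strains by limma at an adjusted p under 0.05, while none passed the test against wild type. Both strains lack Cyp1b1, so each is listed as a difference between groups; slide and strain cannot be told apart, and no explanation was weighed. The log2 differences, R-Cyp1b1-null minus Cyp1b1-null with all arrays, were 6.73 for Ifi202b, 6.56 for Chrna4, 5.1 for Lvrn, 4.66 for Pnpla3, 3.91 for 5031425E22Rik, 3.61 for Cyp26a1, 3.41 for Gpr6 and 3.24 for Olfr148. They were -5.56 for Afp, -5.55 for Igf2 and -3.57 for Cyp7a1.

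Without R-Cyp1b1-null array 3 the values were 6.61 for Ifi202b, 6.47 for Chrna4, 4.73 for Lvrn, 4.74 for Pnpla3, 3.68 for 5031425E22Rik, 4.24 for Cyp26a1, 2.71 for Gpr6, 3.04 for Olfr148, -4.45 for Afp, -5.51 for Igf2 and -3.11 for Cyp7a1. Ifi202b, Chrna4, Lvrn, Gpr6 and Olfr148 were not well above background in Cyp1b1-null liver, so their differences depend on the background. Bounds were taken without array 3 and with the scaling used for the levels above. By these, R-Cyp1b1-null liver was at least 26.9-fold higher for Ifi202b and 20.5-fold for Chrna4. The bound was 8.81-fold for Lvrn, 4.14-fold for Gpr6 and 3.4-fold for Olfr148. Over 16 settings without array 3, the lowest log2 differences were 1.57 for Ifi202b and 1.57 for Chrna4. They were 0.5 for Lvrn, 0.23 for Olfr148 and -0.17 for Gpr6. The bounds therefore do not hold in every setting. Of these settings, Gpr6 and 5031425E22Rik were called in 12, Cyp7a1 in 13 and Olfr148 in 14. Chrna4, Lvrn and Pnpla3 were called in 15, and the other 4 genes in 16.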

How the results depend on the processing

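The count of genes called against wild type, 0 with all arrays and 0 without R-Cyp1b1-null array 3, stayed at 0 under every normalization, background, filter, probe rule and fit tried except these. Array quality weights called 2 with all arrays and 2 without array 3. Without array 3, the pool arrays as 3 samples gave 1, the slide as a random block gave 1, and leaving out the poorly correlated wild-type deficient array gave 2. Alternatives added after seeing the data gave 1 (pool arrays as 3 samples, without that array) and 1 (quantile normalization, without that array). The genes were Muc3, Rspry1 or both: Muc3 at adjusted p from 0.000257 to 0.0433 where called, and Rspry1, which rests on wild-type array 1, from 0.000248 to 0.0433. The genotype difference by diet, 0 in both fits, became 380 with array weights and all arrays, and without array 3 it became 1 with weights, 1 with the pool as 3 samples, 1 with the random block, 1 without the deficient array and 1 with the pool as 3 samples and no deficient array.

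The strain comparison moved most with scaling. From 3419 calls with all arrays (3268 higher, 151 lower) it went to 757 under quantile normalization (359 higher, 398 lower), 1300 with that and no poorly correlated deficient array, 4 with normexp and quantile normalization together (below, normexp), 9372 without the filter on dim probes and 7458 with array weights. From 2744 without array 3 it went to 692 (279 higher, 413 lower), 1764, 16, 6969 and 8224 in the same order. Leaving out 1 replicate each gave 2744 to 4737 with all arrays and 1814 to 2744 without array 3. Genes at least 1 higher on every slide, 41, became 0 with normexp and 117 without the filter; those lower, 15, became 39 under quantile normalization and 9 with normexp. On slides 1 and 2 the 109 higher became 243, 9 and 239 under quantile, normexp and no filter, and the 150 lower became 190, 14 and 307.

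Pdk4 with all arrays turned to -0.20 under quantile normalization, also without the deficient array. Gpr6 and Suco turned under normexp to -0.08 and -0.14 with all arrays and -0.16 and -0.06 without array 3. Muc3 with all arrays turned to 0.25 without the filter on dim probes, which changes its probe, and Ehhadh to 1.37 with array weights. Leaving out 1 replicate each, Rspry1 spanned -0.42 to 2.67, Akr1b7 -0.12 to 2.05 and Ehhadh -1.12 to 1.37; where 1 array was left in a group it was assumed to vary like the others. The cause of the other changes was not tested.

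The replicate block, which equals the slide, called 0 genes in both fits (573 and 289 at an unadjusted p under 0.05). The deviations of same-numbered arrays correlated at -0.59, 0.39 and -0.35. R-Cyp1b1-null arrays 1 and 2 gave near-equal values against each wild-type array, and array 3 gave their mirror image. The poorly correlated array 3 thus set these values, and they cannot tell whether the numbers pair the samples.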
